A study of Mus musculus with 3 samples.

Results

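The cytosolic ribosomal protein genes of mouse bone marrow cells were followed across 3 single-cell RNA libraries. The genes were the rows whose symbol starts with Rpl, Rps or Rplp and goes on with a number, with or without one of a few endings (a, x, l, al, a1, rt, l1), plus Rpsa. This rule took 85 of the 32285 rows, 52 named for the large subunit and 33 for the small one, and left out pseudogene rows, the mitochondrial ribosomal proteins and genes such as Fau and Rack1, which also code for ribosome components. The annotation types all 85 as protein coding. Each had at least 1 UMI (a unique molecular identifier, the tag that marks 1 captured mRNA molecule), and 82 had at least 200 UMIs in every library. Rpl3l, Rpl10l and Rpl39l did not.

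A cytosolic ribosome holds 1 copy of nearly every ribosomal protein, except the acidic stalk proteins, so cells make these proteins in near equal numbers. Their mRNAs are among the most abundant of growing cells, and many start with a run of pyrimidines, the 5′ TOP motif, through which mTORC1 signalling sets their translation. Several members have a second gene copy with tissue-restricted expression, such as Rpl3l in muscle and Rpl10l and Rpl39l in testis. In blood formation the family is known from Diamond-Blackfan anemia, in which loss of 1 copy of genes such as Rps19, Rpl5 or Rpl11 mainly reduces red cell precursors.

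The libraries were LSK (lineage-negative marrow cells positive for Sca-1 and Kit, a gate rich in stem cells), LK (lineage-negative, Kit positive progenitors) and TBM (total bone marrow), each a single 10x Genomics 3′ v2 library. The sources used here do not give strain, genotype, age or how many mice were used, and do not say if the LK gate excluded Sca-1. Cell numbers in the labels are 1070 for LSK, 3441 for LK and 3984 for TBM. The files hold 1091, 3560 and 4317 barcodes, and 1067, 3461 and 4217 cells remained after filtering, with 11836820, 49936180 and 21958139 UMIs and medians of 9688, 13683 and 3347 UMIs per cell. The gate genes went with the labels: taking the libraries in the order LSK, LK, TBM, Kit had 81.3, 34.4 and 7.61 CPM (UMI counts scaled to the same total in every library) and Ly6a, which encodes Sca-1, had 101, 7.75 and 30.9 CPM. LSK shared 6 cell barcodes with LK and 6 with TBM, and LK shared 26 with TBM. With 1 library per group there is no replicate check and no test, intervals are 95% intervals for counting error only, and a difference between gates cannot be told apart from a difference between libraries. As the text compares sums over cells, fewer cells of a type and less RNA per cell cannot be told apart in a whole library.

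Ribosomal protein mRNA made up a large part of the sorted progenitors' UMIs and a much smaller and more variable part of total marrow. Summed over cells, the 85 genes took 31.6% of LSK UMIs (exact binomial interval 31.5 to 31.6), 30.7% of LK UMIs and 15.3% of TBM UMIs. The median cell had 32.0% in LSK, 31.1% in LK and 14.3% in TBM, and the standard deviation over cells was 3.0, 3.0 and 11.2 percentage points. The middle cells of TBM, from the lower to the upper quartile, ran from 3.52% to 23.3%, so its low median came from a broad distribution. After every cell was thinned to 2000 UMIs, which left out 0, 9 and 1288 cells, the mean shares were 32.1%, 31.5% and 13.8%. Large-subunit UMIs outnumbered small-subunit UMIs by 1.32 to 1 in LSK, 1.30 to 1 in LK and 1.28 to 1 in TBM, and the 10 most abundant members held 22.6%, 22.5% and 22.0% of the ribosomal protein UMIs.

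Which cells carried the high and the low shares was read from clusters built without the ribosomal protein genes. A cluster named "-like" rests on RNA markers, and the others are called by their leading genes. Among the progenitors of LSK and LK the shares lay close together. Erythroid progenitor-like LK cells had 33.3% (418 cells), lymphoid-primed progenitor-like LSK cells 32.7% (51 cells), stem and multipotent progenitor-like cells 31.7% in LSK (910 cells) and 31.3% in LK (431 cells), and granulocyte-monocyte progenitor-like LK cells 29.8% (502 cells). The few TBM cells of 2 progenitor clusters were as high: 29.7% in 46 granulocyte-monocyte progenitor-like cells and 32.5% in 42 cells of a further cluster, led by F13a1, Irf8 and Ms4a6c, which had 30.1% in LK (885 cells). In 2 further clusters TBM was lower: the mast cell and basophil-like cluster had 31.1% in LK (246 cells) and 23.8% in TBM (38 cells), and a cluster led by Jchain, Mt2 and C1qtnf12 had 29.4% in LK (33 cells) and 16.3% in TBM (31 cells). These 2 clusters mix kinds of cells. At resolution 2, mast cell and basophil-like clusters led by Ms4a2 and by Prss34 held 233 and 1 LK cells and 5 and 33 TBM cells. Clusters led by Car1 and Mt2 and by Jchain and C1qa held 72 and 0 LK cells and 11 and 25 TBM cells. The LK and TBM values are thus not of like cells.

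Mature cells of TBM spread over a wide range. A cluster led by Ccl5, Ms4a4b and Gzma, with Cd3g and Cd3d among its leading genes, had 32.5% (147 cells), inside the range of the progenitor classes. B cell-like cells had 25.3%, with 27.7% in the cluster led by Cd74 (599 cells) and 19.3% in that led by Ms4a1 (179 cells). Pro-B and pre-B cell-like and monocyte lineage-like cells each had 21.5%. Neutrophil-like cells were far lower, with 5.70% in the cluster led by Chil3, Ngp and Camp (563 cells), genes of granule-forming neutrophil precursors, and 3.49% in the cluster led by Retnlg, Mmp8 and Mmp9 (957 cells). Erythroblast-like cells (119 cells) had 1.17%, the lowest share at this clustering, and their UMIs were 78.9% lineage products (hemoglobins and the like). A cluster led by Rhd and Hba-a1 (337 cells) had 10.5% of its summed UMIs but only 3.23% in its median cell, and its cells ran from 1.23% at the tenth percentile to 23.7% at the ninetieth. At Leiden resolution 0.5 the cluster named erythroblast-like held 456 TBM cells and had 8.62%, which left neutrophil-like cells lowest.

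**Figure D1:**
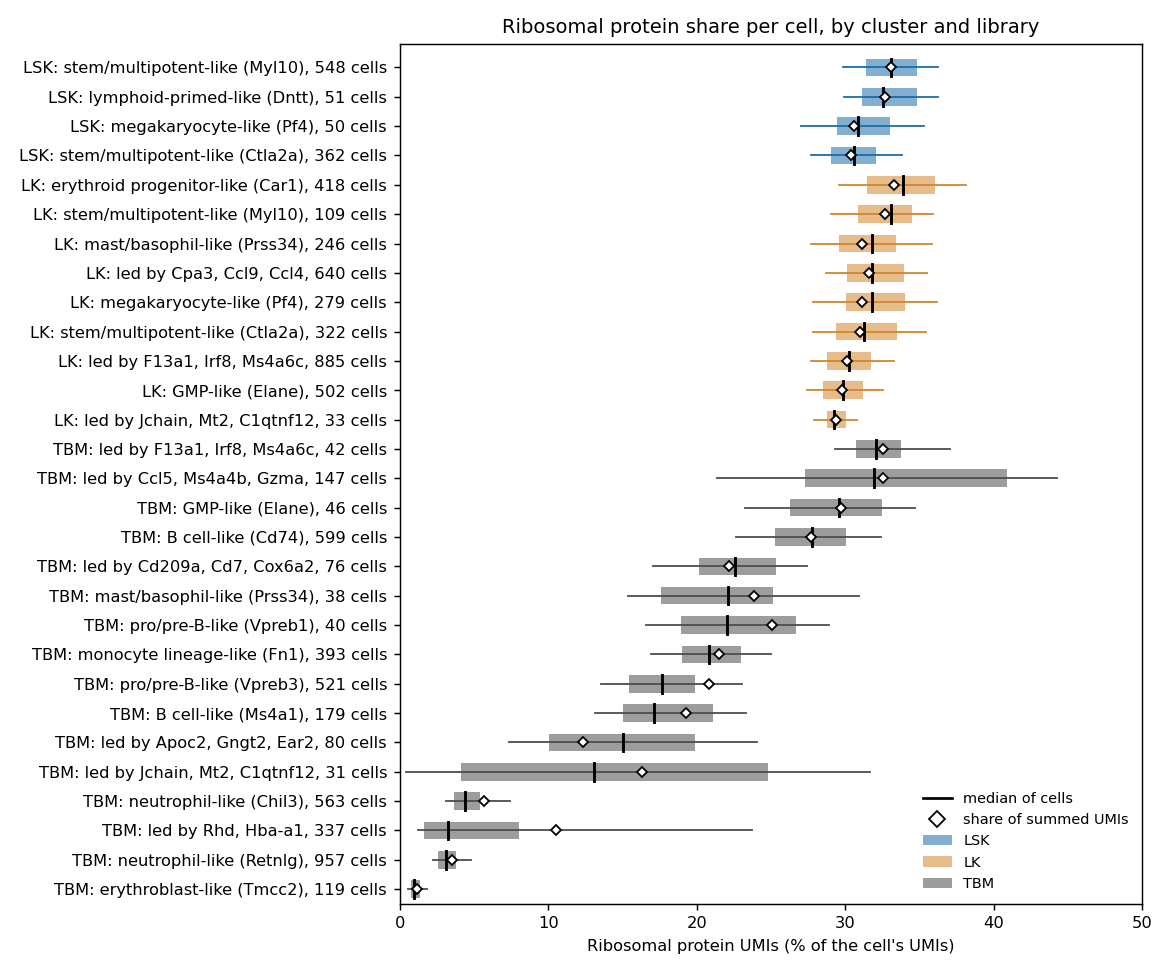
Ribosomal protein share of each cell's UMIs (horizontal axis, percent) for every cluster with at least 30 cells in a library; boxes span the quartiles, lines the tenth to ninetieth percentile, black ticks mark the median cell and diamonds the share of summed UMIs. Progenitor clusters of LSK and LK sit near 30%, and the median cells and summed shares of the neutrophil-like and erythroblast-like clusters of TBM lie below 6%.

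These shares are parts of a whole that also holds a few very abundant products. With a fixed list of lineage products, among them hemoglobins and granule proteins, and the mitochondrially encoded genes taken out of the total, the library shares were 32.4%, 32.1% and 21.9% in LSK, LK and TBM. Neutrophil-like cells then had 10.2%, erythroblast-like cells 5.64% and the cluster led by Rhd 19.1%, still the lowest among the classes together with the 19.0% of a cluster led by Apoc2, Gngt2 and Ear2. The ribosomal protein UMIs themselves differed as well. The median cell held 5326 of them in the granulocyte-monocyte progenitor-like cells of TBM, 313 in the neutrophil-like cluster led by Chil3, 64 in that led by Retnlg and 61 in erythroblast-like cells. Free RNA in the droplets bears on the smallest of these counts. Erythroblast-like cells held a median of 27 UMIs of the neutrophil genes S100a8 and S100a9, and 27 such UMIs at the ratio of the whole TBM library would bring 34.9 ribosomal protein UMIs. In the neutrophil-like cluster led by Retnlg, a median of 8 hemoglobin UMIs corresponds to 13.5 ribosomal protein UMIs by the same count, and in the B cell-like cluster led by Cd74, 8 UMIs of S100a8 and S100a9 correspond to 10.4 against a median of 507. How much free RNA adds to each class was not tested.

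Between LSK and LK the family as a whole stood level. The median log2 ratio of CPM over the 82 measured members was -0.03, where the median of all 9646 genes tested was 0.24. Only Rps27 and Rps28 were at least 1.5-fold higher in LSK, and 0 of 82 were at least 1.5-fold lower, while 28.2% of all genes were called higher and 5.97% lower. Against TBM nearly all members were higher in both progenitor gates. In LSK, 79 of 82 were at least 1.5-fold higher than in TBM (median log2 ratio 1.01) and 0 lower, beside 50.8% higher and 14.7% lower among all genes, whose median was 0.60. In LK, 74 of 82 were at least 1.5-fold higher than in TBM (median 1.05) and 0 lower, beside 42.0% higher and 18.9% lower, with a median of 0.40 over all genes. The comparisons with TBM share its library, so their likeness is no separate evidence. Without the lineage products and mitochondrially encoded genes in the total, the counts were 33 of 82 for LSK, beside 29.1% of all genes, and 43 of 82 for LK, beside 24.2%.

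Genes that work with the ribosome moved to different extents. The 23 ribosome assembly factors, which build subunits in the nucleolus, had a median log2 ratio of 1.78 in LSK over TBM and 2.10 in LK over TBM, and 22 of 23 were at least 1.5-fold higher in each. In LSK, LK and TBM, Ncl (nucleolin) had 835, 965 and 219 CPM. Nop56, a box C/D snoRNP core protein, had 232, 279 and 67.7 CPM, so both were high in the progenitor libraries and lower in total marrow. The 5 elongation factors had medians of 1.26 and 1.16 and the 30 initiation factors 0.97 and 1.06, close to the ribosomal proteins themselves. The 78 mitochondrial ribosomal proteins were 0.69 and 1.02, and in LSK over LK their median was -0.35, lower than the -0.03 of the cytosolic members, with 10 of 78 at least 1.5-fold lower. Of 9 other mRNAs known to start with a pyrimidine run, 7 were at least 1.5-fold higher in each progenitor library than in TBM. Rack1, a scaffold protein of the small subunit outside the symbol rule, followed the family, with 1330, 1607 and 582 CPM in the same order. Fau, which codes for a ubiquitin-like protein fused to eS30, did not: it stood at 3098, 3421 and 3183 CPM.

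Averaged over the libraries, Rpl13 and Rps19 were the most abundant members. Rpl13, a large-subunit protein, took 2.72%, 2.80% and 2.41% of ribosomal protein UMIs in LSK, LK and TBM. Rps19, the gene most often mutated in Diamond-Blackfan anemia, took 2.51%, 2.60% and 2.33%. The 3 least abundant measured members were the paralogs Rpl7l1 (0.0367% on average over the libraries), Rps27rt (0.0389%) and Rps27l (0.207%). A 3′ kit counts molecules rather than length, but capture differs between mRNAs, so these levels are not protein levels.

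Members were called departing where their log2 ratio lay at least 1.5-fold from the median of the members. In LSK over LK this held for 2 of 82, beside 29.8% of all genes, each measured from their own median. In the order LSK, LK, TBM, Rps27, a zinc-finger protein of the small subunit, had 4953, 2697 and 3069 CPM. In CPM, LK and TBM were close, but the family as a whole was lower in TBM. Against the members' median, Rps27 did not depart in LSK over TBM and was low in LK over TBM. Its log2 ratio of LSK over LK was 0.91 above that median. Rps28, a small-subunit protein near the mRNA exit, stood at 6555, 4350.0 and 2712 CPM and lay 0.62 above it. In LSK over TBM 3 of 82 departed, beside 51.1% of all genes. Rpl3, a large-subunit protein near the peptidyl transferase center, stood at 5626, 5353 and 1846 CPM and lay 0.60 above the median, while Rpl36al (716, 1054 and 590 CPM) and Rps27rt (98.8, 70.0 and 95.9 CPM) lay 0.73 and 0.96 below it. In LK over TBM 5 of 82 departed, beside 55.2% of all genes, and all were relatively low in LK. Rps27 lay at -1.23 and Rps27rt at -1.50. Rps29, Rpl41 and Rps26 lay at -0.73, -0.70 and -0.63, with 4939, 4624 and 1898 CPM in LK against 3971, 3626 and 1416 in TBM.

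The LSK over LK differences were also seen within single cell classes, and went with transcript length. Relative to the members' median, Rps27 still departed in stem and multipotent progenitor-like cells (0.79) and in megakaryocyte lineage-like cells (0.70), while Rps28, at 0.58 and 0.55, lay just under 1.5-fold in both. Rpl41 departed in both classes (0.63 and 0.77) but not over the whole libraries (0.51). The stem and multipotent progenitor-like class joins clusters that LSK and LK hold in different proportions. Rps27 lay at 0.68 in the cluster led by Ctla2a (362 LSK and 322 LK cells). In that led by Myl10 (548 and 109 cells) it lay at 0.70. Rps29 departed in both clusters (0.61 and 0.60) and Rpl35 in the first (0.59). Within stem and multipotent progenitor-like cells, LSK had 5062 CPM of Rps27 against 3012 for LK, and 6395 CPM of Rpl41, which codes for the smallest ribosomal protein, against 4256. In megakaryocyte lineage-like cells Rps27 had 4401 and 2897 CPM and Rpl41 had 6885 and 4327 CPM in the same order. Both genes were thus higher in LSK in both classes that the libraries share. The ratio of LSK over LK fell with transcript length: its Spearman correlation across the 82 members was -0.43 for whole libraries, -0.53 within stem and multipotent progenitor-like cells and -0.56 within megakaryocyte lineage-like cells, a description over genes that share the same 2 libraries. The 12 members with transcripts under 500 nt had a median of 0.41 above the family (from -0.51 to 0.91), and the 24 members over 1000 nt a median of -0.07 (from -0.30 to 0.21). Lengths are medians over a gene's top-ranked annotated coding transcripts and may differ from the main mRNA. Rps15a, for example, is listed at 5130 nt and Rps20 at 3706 nt.

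In the clusters that LK shares with TBM, some of the LK over TBM departures remained and others did not. Granulocyte-monocyte progenitor-like cells of LK had 5204 CPM of Rps29 and those of TBM (46 cells) 8043, Rpl41 at 4648 and 7064 CPM, and Rps26 at 1867 and 3190.5 CPM. In the cluster led by F13a1, Rps29 stood at 5194 and 7811 CPM, Rpl41 at 4843 and 7796 CPM, and Rps26 at 1982 and 3597 CPM. Relative to the members' median, Rpl41, Rps26 and Rps27rt departed in both clusters, Rps29 in the first (-0.67) and not in the second (-0.51), and Rps27, at -0.55 and -0.49, in neither. LK was the lower of the libraries for these 5 genes in both clusters, although the ribosomal protein share of the granulocyte-monocyte progenitor-like cells was alike in LK and TBM. The correlation of LK over TBM with length was 0.58 and 0.55 in these clusters. Other genes gave a mixed picture by length. In LK over TBM, 55 other genes under 500 nt had a median log2 ratio of 0.11, below the 0.43, 0.51 and 0.39 of those of 500 to 700, 700 to 1000 and over 1000 nt. In LSK over LK, the same bins had medians of -0.05, -0.14, -0.16 and 0.26, so the shortest lay above the middle bins and below the longest. What sets this pattern was not tested, and a property of the LK library cannot be told apart from one of the LK gate. At resolution 2, a granulocyte-monocyte progenitor-like cluster led by Fcnb held 33 TBM and 2 LK cells. The one led by Elane and Ms4a3 held 14 TBM and 482 LK cells, and a cluster led by F13a1 held 34 and 322. A difference in the kind of granulocyte-monocyte progenitor-like cell can therefore not be told apart from library or gate either.

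**Figure D2:**
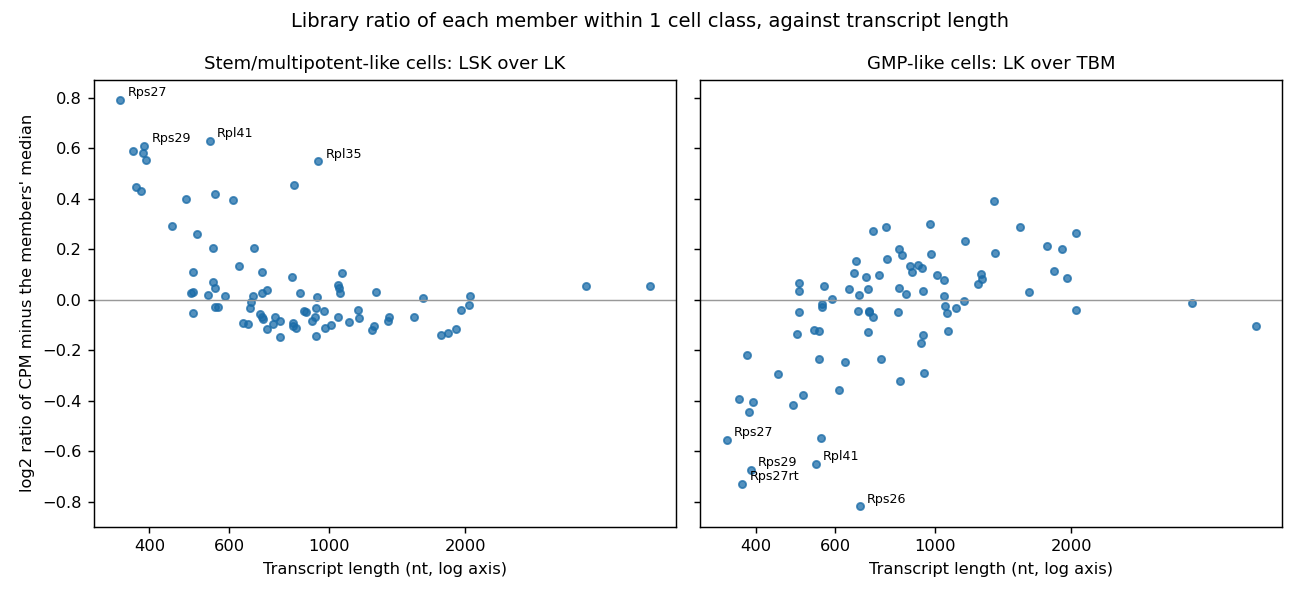
Log2 ratio of CPM between libraries, minus the members' median (vertical axis), for each measured member against its transcript length in nucleotides (log axis), within 1 cell class: stem and multipotent progenitor-like cells, LSK over LK (left), and granulocyte-monocyte progenitor-like cells, LK over TBM (right). Short transcripts such as Rps27, Rps29 and Rpl41 lie above 0 on the left and below 0 on the right, so LK is the low library in both.

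Across cell classes the composition of the ribosomal protein mRNA pool differed more in mature than in progenitor cells. Each member's share of the ribosomal protein UMIs was taken in 19 groups, a class within a library with at least 50 cells. The highest group was at least 2-fold above the lowest for 38 of 82 members, and the median fold was 1.99. Among all genes with at least 200 UMIs in every library 100% passed this fold on their share of the other UMIs, though many of them are at few UMIs in a class. With at least 200 UMIs asked in every class but the erythroblast-like, it was 19 of 77 members with a median of 1.77-fold and 95.5% of 66 other genes with a median of 5.96-fold. Within the 10 groups of LSK and LK alone 0 of 82 members reached 2-fold, within the TBM groups 33 did, and without the erythroblast-like group 23 did. At a coarser clustering (resolution 0.5) the count was 22. The most even members were Rpl23 (1.21-fold), Rpl27a (1.23-fold) and Rps3 (1.26-fold).

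The spread of a whole profile can be given by class as well. Over the 82 members, the standard deviation of the log2 share around each member's median group was 0.15 in LSK stem and multipotent progenitor-like cells, 0.18 to 0.20 in the 7 LK groups, 0.20 in pro-B and pre-B cell-like cells, 0.26 in monocyte lineage-like cells, 0.41 in B cell-like cells, 0.56 in neutrophil-like and 0.58 in erythroblast-like cells. The erythroblast-like class rests on 8798 ribosomal protein UMIs. Most of the groups are from LSK and LK, so the median lies near them and their spread is small in part by construction. Taken directly between 2 groups, the standard deviation was 0.22 for stem and multipotent progenitor-like cells of LSK and LK. It was 0.23 for B cell-like cells and the cluster led by Ccl5, and 0.54 for neutrophil-like and erythroblast-like cells.

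**Figure D3:**
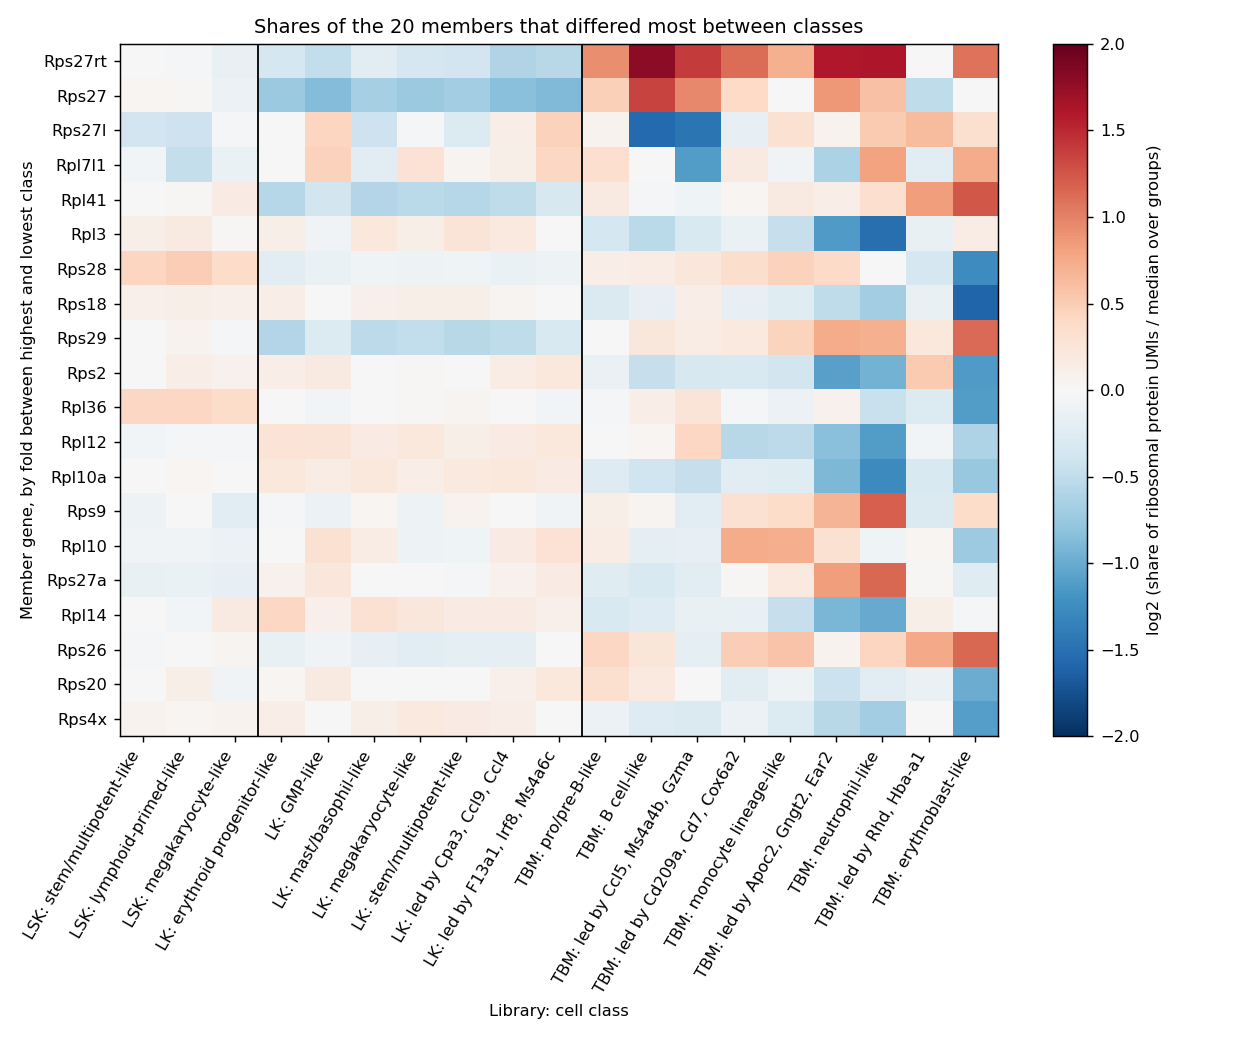
Log2 of each member's share of ribosomal protein UMIs over its median across the 19 groups (color scale) for the 20 members with the largest fold between classes (rows), by library and cell class (columns; black lines divide LSK, LK and TBM). In the LK columns Rps27 is the lowest member (-0.67 to -0.88), other departures of LSK and LK are weaker, and the strongest colors lie in the neutrophil-like, lymphocyte and erythroblast-like columns of TBM.

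Neutrophil-like cells held the largest shifts seen within 1 library. From the granulocyte-monocyte progenitor-like cells of TBM to the neutrophil-like clusters led by Chil3 and by Retnlg, Rps9, a small-subunit protein at the mRNA entry site, went from 1.14% to 2.61% and 5.48% of ribosomal protein UMIs. Rps27a, a ubiquitin fusion to eS31, went from 1.78% to 2.63% and 5.54%, and Rps27 from 1.22% to 1.79% and 3.97%. Together these 3 genes made up a larger part of the pool at each step. Against the progenitor-like cells their own levels were still lower: Rps9 stood at 3378 CPM in the progenitor-like cells and 1912 in the cluster led by Retnlg, the smallest fall among the 81 members with at least 200 UMIs over the pair of clusters, with a log2 ratio of -0.82 where their median was -3.26 and that of all genes -0.51. From the cluster led by Chil3 to that led by Retnlg it went up, from 1485 to 1912 CPM, as did Rps27a (1496 to 1933 CPM) and Rps27 (1022 to 1385 CPM). No other class of TBM had Rps9 above the 2.34% of the cluster led by Apoc2, Gngt2 and Ear2. Rps9 and Rps27a fall outside the rule that chose genes to name, as do Rpl10a, Rpl12, Rpl14, Rpl28 and Rpl37 and the even members named above, and were picked after their values were seen.

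Other members took a shrinking part of the neutrophil pool. Rpl36a went from 1.01% to 0.542% and 0.210%, and from 3012 CPM to 73.2 CPM, a log2 ratio of -5.36 that was the lowest of these 81 members. Rpl3 went from 1.18% to 0.668% and 0.320%. Rpl10a went from 0.870% to 0.460% and 0.242%, and Rpl12, a protein at the base of the stalk, from 0.585% to 0.267% and 0.166%. All 4 of these are large-subunit proteins, while Rps9, Rps27a and Rps27 are small-subunit ones, though Rps2 (1.38%, 0.748% and 0.425%) and Rps18 (2.04%, 1.47% and 0.724%) also took less and the large-subunit gene Rpl37 took more (1.47%, 1.73% and 3.27%). The ratio of large to small subunit UMIs was 1.17 in neutrophil-like cells, against 1.29 in granulocyte-monocyte progenitor-like LK cells, which are from another library. Within TBM the ratio was 1.16 in the cluster led by Apoc2, Gngt2 and Ear2 and 1.22 in B cell-like cells. Monocyte lineage-like cells had 1.30 and erythroblast-like cells 1.54. The cluster led by Apoc2, Gngt2 and Ear2 shared the direction of these shifts, with Rpl3 at 0.756% and Rps27a at 2.72%, and it held a median of 778 S100a8 and S100a9 UMIs per cell. What part neutrophil RNA has in it was not tested.

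B cell-like cells differed from the rest mainly through Rps27 and its paralogs. From the pro-B and pre-B cell-like cluster led by Vpreb1 (40 cells) through that led by Vpreb3 to the B cell-like cluster led by Cd74, Rps27 went from 1.58% to 2.32% and 4.34% of ribosomal protein UMIs, and from 3972 to 12033 CPM at the ends. Rps27l went the other way, from 0.240% to 0.203% and 0.0541%, and from 602 to 150 CPM (194 and 177 UMIs). Rpl28 went from 1.12% to 1.08% and 0.535%. Rplp0, the scaffold of the acidic stalk, went from 2.20% to 2.18% and 1.32%, while its partners Rplp1 and Rplp2 were at 1.20% and 1.33% at the start and 1.02% and 1.14% at the end. The cluster led by Ccl5, Ms4a4b and Gzma had the same leading pair, with Rps27 at 3.03% and Rps27l at 0.0722%.

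**Figure D4:**
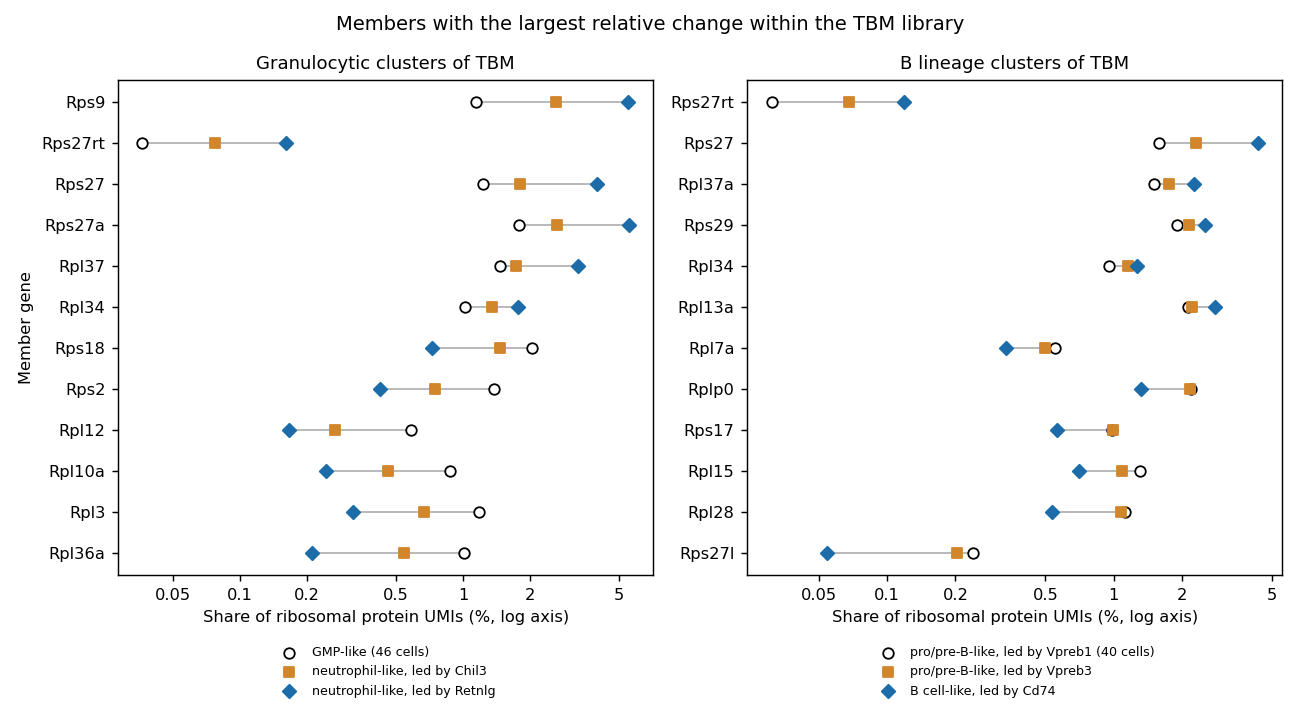
Share of ribosomal protein UMIs (percent, log axis) for the 6 members with the largest relative rise and the 6 with the largest relative fall along the granulocytic clusters (left) and the B lineage clusters (right) of TBM. Circles mark the earliest cluster, squares the middle one and diamonds the last one. Rps9 moves from 1.14% to 5.48% on the left, and Rps27 from 1.58% to 4.34% on the right.

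Erythroblast-like cells were the highest of the 19 groups for Rpl41, Rps29 and Rps26 and the lowest for Rps18, Rps28 and Rps2, with few UMIs behind these values. Part of this was shared with other mature cells. Around each member's median group, the log2 share of Rps29 was 0.71 in neutrophil-like cells and 0.74 in the cluster led by Apoc2, and that of Rps2 was -0.94 and -1.09. In erythroblast-like cells Rpl41 took 4.76% (419 UMIs) and Rps29 4.67% (411 UMIs) of ribosomal protein UMIs, against 1.36% and 1.41% in erythroid progenitor-like LK cells and 3.59% and 2.47% in the cluster led by Rhd. Rps26 was at 1.45%, 0.598% and 1.11% in the same 3 groups. Rps18 was low, at 0.682% (60 UMIs) against 2.27% and 1.88%, and Rps28 at 0.648% (57 UMIs) against 1.32% and 1.23%. Rps2 took 0.580% (51 UMIs) against 1.40% and 1.85%. LK was the library with low Rpl41 and Rps29 throughout, so its values are no clean baseline for these genes, and the free RNA given above weighs most in this class.

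The 5S RNP proteins Rpl5 and Rpl11, which bind MDM2 when ribosome assembly fails, both varied less across classes than the median member (1.99-fold). Rpl11 took 1.14%, 1.30% and 1.17% of ribosomal protein UMIs in LSK, LK and TBM and was among the even members across classes (1.36-fold). Rpl5 took 0.430%, 0.50% and 0.386%, with 0.422% in pro-B and pre-B cell-like cells and 0.292% in neutrophil-like cells, its lowest group, and differed 1.74-fold across classes. Of 12 p53 target genes, 7 had enough UMIs in LSK and LK, with a median log2 ratio of 0.23, level with that of all genes. Among the stalk proteins, Rplp0 had 6482, 7129 and 3177 CPM, Rplp1 3854, 3699 and 1806 CPM and Rplp2 3372, 3066 and 1949.6 CPM, LSK first and TBM last, and none departed from the family. The 19 Diamond-Blackfan anemia genes had medians of -0.01, 1.01 and 0.96 in LSK over LK, LSK over TBM and LK over TBM, as the family did.

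The use of paralogs differed between cell classes, above all for Rps27 and Rps27l. RPS27L is known in human cells as a target of p53. The start of the coding sequence shows how alike the copies are. The first 60 coding bases of Rps27, Rps27rt and Rps27l in GENCODE M21 are given here 5′ to 3′, with capitals where a base differs from Rps27.
Rps27: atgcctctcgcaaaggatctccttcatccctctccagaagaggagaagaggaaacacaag
Rps27rt: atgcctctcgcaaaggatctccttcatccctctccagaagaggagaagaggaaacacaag
Rps27l: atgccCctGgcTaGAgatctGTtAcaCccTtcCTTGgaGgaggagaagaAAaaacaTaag
Rps27l differs at 18 of these 60 bases and at 61 of its 255 coding bases (76.1% identity), so reads in the coding part assign it. Rps27rt, a copy on chromosome 9 at 114982366 to 114982739 on the minus strand (GRCm38), has the same 255 coding bases as Rps27 on chromosome 3 at 90212522 to 90213651. Reads from these bases cannot tell Rps27 from Rps27rt. The count of Rps27 may be affected too, and the values of Rps27rt are uncertain throughout.

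The promoter starts of these genes also differ in their letters. Each line gives 15 bases before the RefSeq start and 15 from it on (GRCm38.p6). Capitals mark an unbroken run of C and T that covers the start base and can reach back before it. Bases before the start are not part of the mRNA, so such a run need not be a 5′ TOP motif.
Rps27 (chr3:90213634-90213663, minus strand): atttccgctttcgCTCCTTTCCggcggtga
Rps27rt (chr9:114982725-114982754, minus strand): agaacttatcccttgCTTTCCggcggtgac
Rps27l (chr9:66946071-66946100, plus strand): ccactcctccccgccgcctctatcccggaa
Rps9 (chr7:3704026-3704055, plus strand): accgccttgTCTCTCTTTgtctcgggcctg
Rpl14 (chr9:120571502-120571531, plus strand): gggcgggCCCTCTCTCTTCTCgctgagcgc
Rps27 and Rps9, which took a growing part of the neutrophil pool, and Rpl14, which went from 1.41% to 0.797% and 0.505% there, all hold such a run. So does Rps18, which took less. The starts listed for Rpl36a and Rpl12, which took less, and for Rpl37, which took more, hold none, so these lines are examples only. The start listed for Rps27l has none. Bases before the start counted, a run of at least 5 bases covered it in 19 of 65 members matched in the RefSeq table (29.2%). This held for 9.95% of 27025 genes, and a run of at least 8 bases for 23.1% of members and 3.81% of genes. The letters CTTCCG, on either strand, stood within the promoter window of the RefSeq table (mostly upstream of the start) in 66.2% of members and 17.2% of all genes, AAGATGG in 13.8% and 6.48%, and TATAAA in 9.23% and 14.2%. Listed starts can miss the true start by a few bases, and a match is a description of letters only.

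Rps27l took 9.37% of the Rps27l and Rps27 UMIs in LSK, 21.6% in LK and 9.74% in TBM. Its share was 24.6% in the LK cluster led by F13a1, 23.9% in granulocyte-monocyte progenitor-like LK cells and 22.0% in the TBM cluster led by Rhd. It was 13.6% in monocyte lineage-like, 10.9% in neutrophil-like and 8.76% in pro-B and pre-B cell-like cells, and only 2.33% in the cluster led by Ccl5 and 1.68% (exact binomial interval 1.49 to 1.88) in B cell-like cells. Granulocyte-monocyte and erythroid progenitors were therefore high and lymphocytes low, with LSK progenitors in between. In stem and multipotent progenitor-like cells it was 8.76% in LSK and 14.7% in LK, where Rps27 itself was low throughout the LK library. Taken over all ribosomal protein UMIs instead, Rps27l was 0.270% in granulocyte-monocyte progenitor-like LK cells, 0.308% in the cluster led by Rhd and 0.0679% in B cell-like cells. B cell-like cells were lowest on both measures.

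Rpl36al and Rpl36a, which share 87.9% of their coding bases and code for near identical proteins, shifted along the myeloid lineages. Rpl36al took 20.1% of the pair in LSK, 31.8% in LK and 35.6% in TBM. Across classes its share was 19.3% in LSK and 24.8% in LK stem and multipotent progenitor-like cells, 33.7% in granulocyte-monocyte progenitor-like LK cells, 45.0% in monocyte lineage-like and 48.1% in neutrophil-like cells, but 28.4% in B cell-like cells and 28.7% in the cluster led by Rhd. Rpl22l1 and Rpl22 stood nearly equal in each whole library, with Rpl22l1 at 55.7%, 52.3% and 48.6% of the pair in LSK, LK and TBM. The groups with at least 50 cells ran from 43.4% in the cluster led by Apoc2 to 58.7% in neutrophil-like cells. Erythroblast-like cells were apart from these, at 71.2% (52 UMIs of Rpl22l1 and 21 of Rpl22). Rpl7l1 took 3.91%, 4.54% and 4.37% of its pair with Rpl7.

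**Figure D5:**
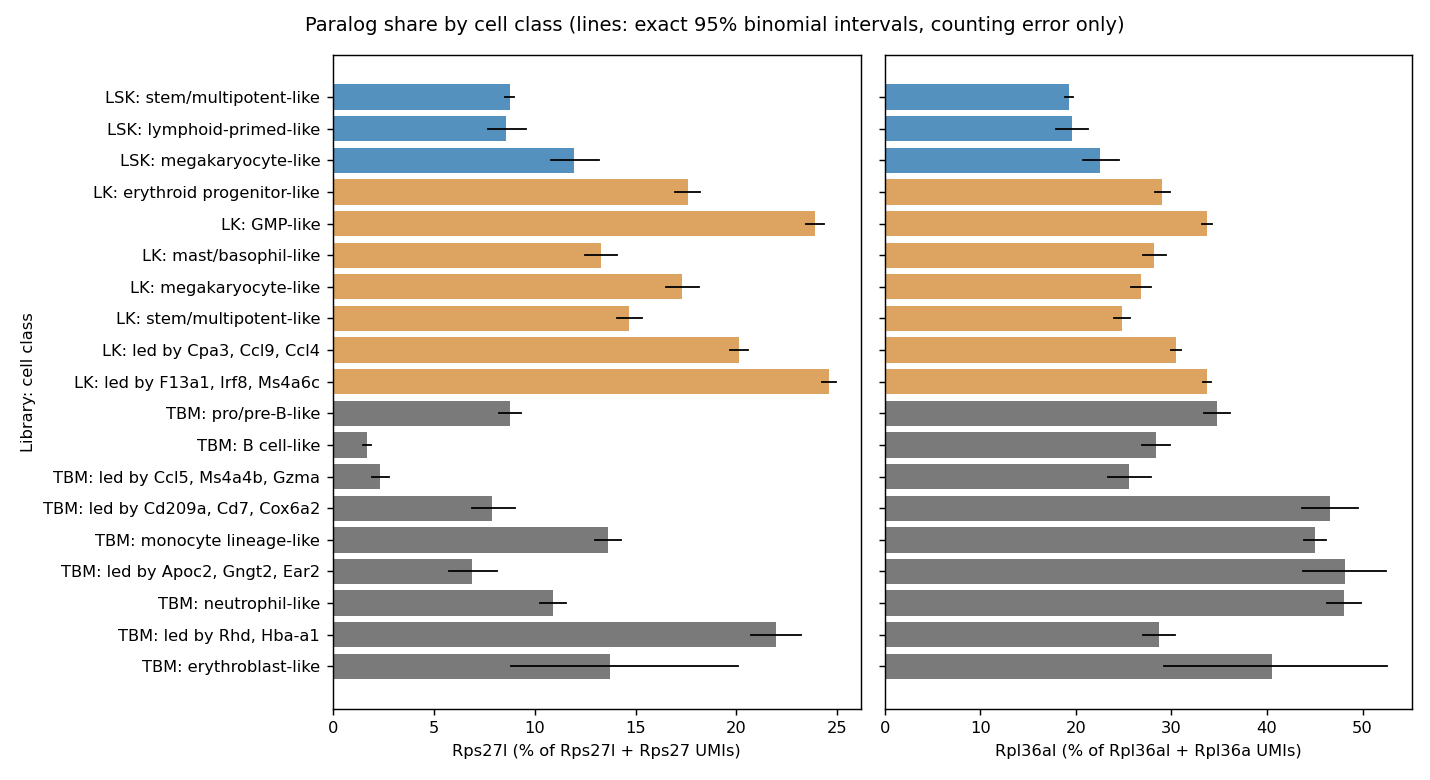
Share of the paralog in its pair (percent of the UMIs of both genes) for Rps27l with Rps27 (left) and Rpl36al with Rpl36a (right) by library and cell class; lines are exact 95% binomial intervals for counting error. Rps27l is lowest in B cell-like cells (1.68%) and in the cluster led by Ccl5 (2.33%), and Rpl36al is highest in the neutrophil-like, monocyte lineage-like, Cd209a-led and Apoc2-led groups of TBM.

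The tissue-restricted copies were close to absent, with 1 exception. Rpl10l had 0 UMIs in LSK and TBM and 4 in LK, and Rpl39l had 3 in LSK and 0 in LK and TBM. In LSK, LK and TBM 3 UMIs amount to 0.253, 0.0601 and 0.137 CPM, the upper limit that a count of 0 allows. Rpl3l, best known from heart and skeletal muscle, had 3 UMIs in LSK, 14 in LK (0.280 CPM) and 105 in TBM (4.78 CPM, exact Poisson interval 3.91 to 5.79). Of the TBM UMIs, 70 were in neutrophil-like cells, where Rpl3l stood at 9.71 CPM (7.57 to 12.3) and was seen in 4.28% of cells. Within these it was at 19.9 CPM in the cluster led by Retnlg (51 UMIs) and 4.10 CPM in that led by Chil3 (19 UMIs), and no single cell held more than 5.88% of the UMIs in either. The neutrophil-like cells thus held the most Rpl3l UMIs and the lowest share of Rpl3, at 0.580% of ribosomal protein UMIs, although Rpl3 still outnumbered Rpl3l there by far.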

How the data were processed

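Each deposited matrix gives UMI counts by gene and barcode, unnormalized whole numbers per the file headers and values. The submitters' processing notes name Cell Ranger 4.0.0 and mm10; the annotation release is not given in the sources used here. Ribosomal protein members, gene lists, marker lists and comparisons were chosen with earlier results of these data known. Cells needed 200 detected genes and no more than 10% mitochondrial UMIs, and scrublet removed 79 doublets (8745 cells of 8968 barcodes); so few calls leave doublets in, and free RNA was not corrected. Cells were clustered jointly without the members, their pseudogenes, gate and cell cycle genes (scanpy 1.11.5, 2000 variable genes, 30 components, 15 neighbours, Leiden resolution 1). A name needs 3 markers seen in 10% of cells and at least 1 among the 10 leading genes. No members fed the clustering, though genes that vary with them did.

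Counts were summed per library or class. CPM have exact Poisson, shares exact Clopper-Pearson and ratios conditional binomial intervals at 95%, and all cover counting error only. Ratios needed 200 UMIs over the groups compared. Calls use 1.5-fold between libraries and 2-fold between classes of at least 50 cells; values in clusters of 30 to 49 cells were added after seeing the data. Named genes were all paralog pairs, up to 5 departing members per library pair and direction, the 10 with the largest fold between classes, the 3 most and least abundant, the 5S RNP and stalk proteins, and genes such as Fau and Rack1. Some items are not reported here. Lengths, coordinates and coding sequences are GENCODE M21, matched by gene identifier. Ratios, intervals and calls were tested on simulated data. Python 3.11.15, numpy 2.4.6, scipy 1.17.1 and pandas 2.3.3 were used.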

Additional observations from a re-analysis of the deposited data

How the results depend on the processing

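Shares, median ratios and counts were recomputed under other settings. The ribosomal protein share of UMIs in LSK, LK and TBM was 31.5%, 30.7% and 15.3% over all deposited barcodes, 15.3% in TBM with doublets kept, 32.1%, 31.5% and 14.3% with every cell weighted equally, 32.4%, 32.1% and 21.9% without lineage products and mitochondrial genes, 31.9%, 31.1% and 15.7% with ribosomal protein genes outside the symbol rule and the pseudogene rows added, and 32.1%, 31.5% and 13.8% in cells thinned to 2000 UMIs. With every cell weighted equally the median log2 ratios were -0.047, 1.16 and 1.16 for LSK over LK, LSK over TBM and LK over TBM, 1 member was at least 1.5-fold higher in LSK over LK and 1 was lower in LK over TBM. Without lineage products and mitochondrial genes they were -0.053, 0.53 and 0.59, and 1, 33 and 43 members were at least 1.5-fold higher, with 2 lower in LK over TBM. Asking for 1 UMI rather than 200, 4 members departed in LSK over LK and 5 in LSK over TBM. The count of members at least 2-fold apart between classes was 22 at Leiden resolution 0.5, and, in alternatives chosen after seeing the data, 23 without the erythroblast-like class and 0 over LSK and LK groups only; this last one holds fewer and more alike groups. The cause of the other changes was not tested. Of the further recomputed values, 50 of these summary results and 65 of single classes, pairs or genes stayed within their interval or 1.5 times, and 15 of the latter moved beyond it. None changed sign, but at Leiden resolution 0.5 the erythroblast-like share was 8.62% rather than 1.17%, above the neutrophil-like share, in a cluster of 456 TBM cells rather than 119. No paired analysis was possible because each group is 1 library, and no library could be left out of its own group. Erythroblast-like cells (8798 ribosomal protein UMIs) limit depth most.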
